A study of Mus musculus with 7 samples.

Results

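Gch1 encodes GTP cyclohydrolase 1, the first and rate-limiting enzyme of tetrahydrobiopterin synthesis, and it was followed here together with the other enzymes of that pathway in sorted mouse erythroblasts with and without superoxide dismutase 2 (SOD2). The members were the 7 genes Gch1, Gchfr, Pts, Spr, Qdpr, Pcbd1 and Pcbd2. They were measured by 10 probe sets, each matched by the platform annotation to 1 of these genes alone, of 45037 probe sets tested on an Affymetrix mouse genome array. On the same array 18193 genes had a probe set of their own. Gch1 was chosen on its log2 difference between the genotypes in these data, so its values are a description and carry no test. The other 6 genes were taken in by their role in the pathway.

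RNA came from TER-119+ CD71+ erythroblasts, sorted at matched size from the marrow of irradiated C57BL/6 recipients (Ly5.1, 11 to 15 weeks old) that had received fetal liver cells of Sod2+/+ or Sod2-/- littermates. The donors were E13.5 to E16.5 embryos of heterozygous B6-Sod2tm1Cje matings, so the Sod2-/- animals were chimeras with a wild-type host. Donor (Ly5.2) and host cells differ at Ly5, which was not part of the sort, and host-derived cells could remain in either genotype. There were 4 Sod2+/+ arrays, numbered 17, 29, 33 and 37 in the labels, and 3 Sod2-/- arrays, numbered 31, 35 and 39. The design calls the replicates biological, but the labels do not say which samples shared a donor or recipient, and p-values therefore cover no more than the scatter among these arrays. The design mentions another Sod2-/- array, which was not analysed here.

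Tetrahydrobiopterin is made from GTP in 3 enzymatic steps. GTP cyclohydrolase 1 opens the guanine ring, 6-pyruvoyl-tetrahydropterin synthase (Pts) removes the triphosphate, and sepiapterin reductase (Spr) completes the reduction. Gchfr encodes the feedback regulator that binds GTP cyclohydrolase 1 and makes it sensitive to the end product and to phenylalanine. The cofactor is consumed by the aromatic amino acid hydroxylases, nitric oxide synthases and alkylglycerol monooxygenase. After hydroxylation it is restored by pterin-4a-carbinolamine dehydratases (Pcbd1 and Pcbd2) and quinoid dihydropteridine reductase (Qdpr). Tetrahydrobiopterin is also known to act as an antioxidant.

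The 250 bases before the transcription start of Gch1 and Qdpr are shown because these genes differed in opposite directions between the genotypes. Capitals mark matches to CCAAT (the core of the CCAAT box), TGACG (the core of the cyclic AMP response element), GGGCGG (the GC box) and TATAAA (the TATA box) on either strand. Both sequences are from the RefSeq promoter table of GRCm38.p6, are written 5′ to 3′ on the strand of the gene, and lie on the minus strand at chr14:47189414-47189663 for Gch1 and chr5:45450230-45450479 for Qdpr.

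Gch1: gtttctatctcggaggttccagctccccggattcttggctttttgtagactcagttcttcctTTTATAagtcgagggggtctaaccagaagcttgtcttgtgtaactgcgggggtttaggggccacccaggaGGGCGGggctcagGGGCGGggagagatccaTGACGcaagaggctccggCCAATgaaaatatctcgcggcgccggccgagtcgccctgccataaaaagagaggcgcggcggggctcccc

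Qdpr: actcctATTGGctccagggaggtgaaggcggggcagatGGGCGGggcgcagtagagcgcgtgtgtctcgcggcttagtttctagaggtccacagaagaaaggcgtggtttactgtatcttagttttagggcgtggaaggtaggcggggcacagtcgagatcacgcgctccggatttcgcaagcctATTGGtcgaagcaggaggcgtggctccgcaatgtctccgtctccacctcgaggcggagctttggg

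In the Gch1 window TGACG began 88 bases and CCAAT 70 bases before the start, with GGGCGG at 118 and 105 bases and TATAAA on the opposite strand at 188 bases. This pair of a cyclic AMP response element core and a CCAAT box close to the start was present in the window of 1 of the 7 members, and both motifs occurred together in 6.12% of 32851 promoter windows of the same length. For Pts and Pcbd2 the RefSeq gene span reaches past the start that the promoter table gives, so their windows may lie partly inside the gene. Separately, TGACG was present in 17.8% of all windows and in those of Gch1 and Pcbd2, and CCAAT in 33.8% and in those of Gch1, Gchfr and Qdpr. The Qdpr window held CCAAT on the opposite strand at 244 and 65 bases and GGGCGG at 212 bases. GGGCGG was in 5 of the 7 member windows (32.7% of all windows). Those 5 windows were 59.2% to 66.4% G and C, against a median of 52.4% over all windows. TATAAA was in 2 of the 7 (12.4% of all) and GATAA, the core bound by GATA factors, in 1 of the 7 (22.6% of all). The AP-1 motif TGACTCA (4.46% of all) and the E-box CACGTG (6.02% of all) matched none of the 7 windows. These matches describe letters in a window, and the arrays hold no measurement of binding.

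Gch1 transcript was far higher in Sod2-/- erythroblasts on both of its probe sets. On the brighter one, 1420499_at, the log2 values in Sod2+/+ were 7.20, 8.34, 7.61 and 7.84 (arrays 17, 29, 33 and 37), and in Sod2-/- they were 10.74, 10.83 and 10.42 (arrays 31, 35 and 39). The genotypes did not overlap: the lowest Sod2-/- array lay 2.08 log2 units above the highest Sod2+/+ array. Of all probe sets, 7.84% were higher without overlap, and nothing is read from this for Gch1, which this contrast chose. The mean went from 7.75 ± 0.48 (SD, n = 4) to 10.66 ± 0.22 (SD, n = 3), a log2 difference of 2.91 or 7.54-fold. Relative to the Sod2+/+ mean, the 3 Sod2-/- arrays stood 7.94-fold, 8.48-fold and 6.36-fold higher. This was the first of 45037 probe sets when ranked by log2 difference. The next gene was Cish, a cytokine-induced SH2 protein, at 2.16.

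The dimmer Gch1 probe set, 1429692_s_at, showed the same direction with a smaller difference. Its log2 values were 4.75, 5.15, 5.20 and 4.84 in Sod2+/+ and 7.29, 7.34 and 6.34 in Sod2-/-, again without overlap. The log2 difference was 2.01 (4.02-fold), rank 4 of all probe sets, next to Trib3, a stress-induced pseudokinase, at 2.01. The probe sets therefore differed by 0.91 log2 units in the size of the genotype difference. They also differed in which genotype varied more. On the brighter set the Sod2+/+ arrays spanned 1.14 log2 units and the Sod2-/- arrays 0.41, and on the dimmer set they spanned 0.45 and 0.99. Array 39 was the lowest of the Sod2-/- arrays on both, at 6.36-fold and 2.57-fold of the Sod2+/+ mean. The sources do not give where on the transcript the probes of each set lie.

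**Figure D1:**
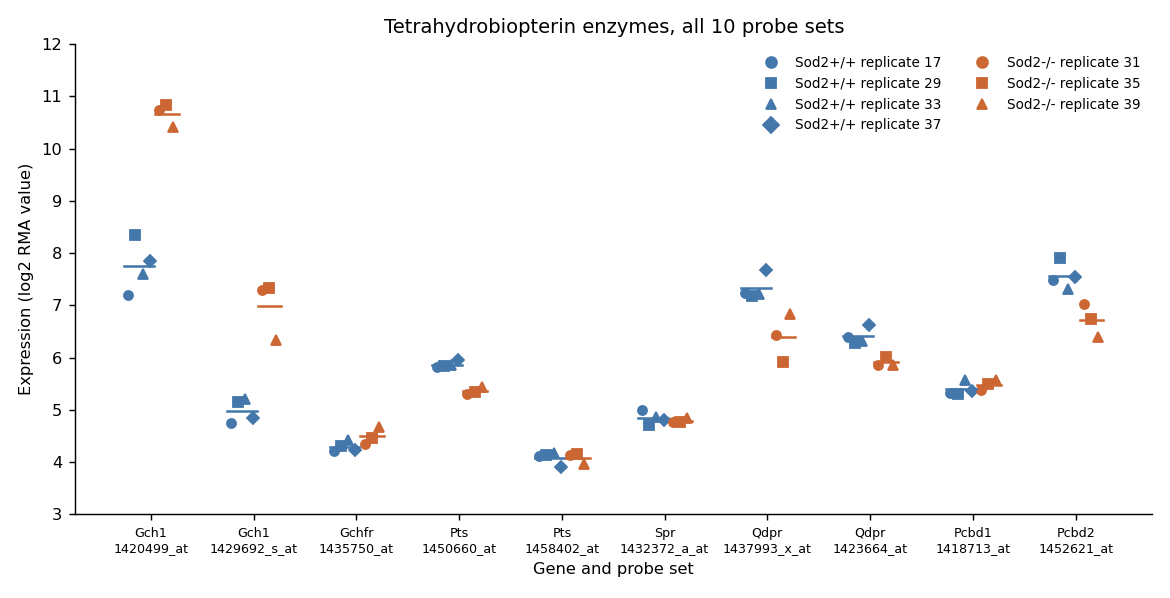
Log2 RMA value (y axis) of each of the 10 probe sets of the 7 genes (x axis), with 1 symbol per array and a line at the mean of each genotype (Sod2+/+ blue, n = 4; Sod2-/- orange, n = 3). Both Gch1 probe sets lie higher in every Sod2-/- array than in any Sod2+/+ array, while Pts 1450660_at, both Qdpr sets and Pcbd2 lie lower without overlap.

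Scaling moved the Gch1 difference little. All probe sets within 0.5 log2 units of the brighter Gch1 set had a median difference of -0.27, opposite in sign to Gch1. After quantile normalization of the arrays its difference was 3.08, and over leaving out each array in turn it ran from 2.73 to 3.11. The average of both probe sets gave 2.46.

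**Figure D2:**
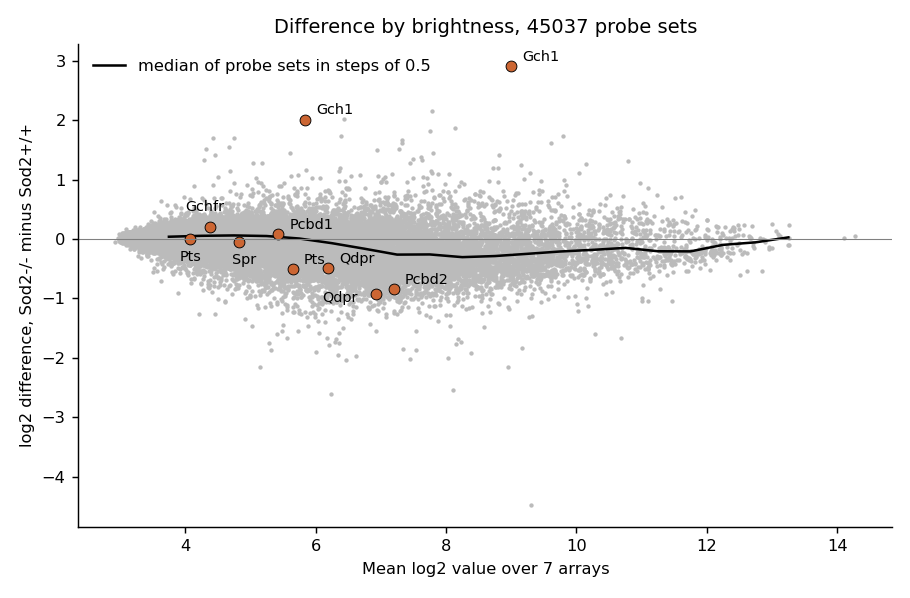
Log2 difference, Sod2-/- minus Sod2+/+ (y axis), against the mean log2 value over the 7 arrays (x axis) for 45037 probe sets (grey), with the 10 probe sets of the tetrahydrobiopterin genes in orange and the median of all probe sets in steps of 0.5 as a line. The brighter Gch1 probe set lies above all others at 2.91, and the line drops below 0 at middle brightness.

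None of the other 6 pathway genes was higher in Sod2-/- erythroblasts, and 3 of them were lower. Pts, Qdpr and Pcbd2 passed the test (limma, adjusted p under 0.05) on their brightest probe sets, and Gchfr, Spr and Pcbd1 did not. Of all genes, 4.47% were lower by the same rule and 0.412% were higher. Every count of limma calls by gene below stands beside these shares. By probe set, 4 of the 8 that belong to these genes were lower and 0 higher, beside 2.83% and 0.566% of all probe sets. These shares include dim probe sets. In a separate fit of probe sets above the median brightness alone, 2076 of 22518 were lower and 360 were higher. The median difference of the 6 genes was -0.28, against 0.02 for all genes. Probe sets of like brightness had median differences of 0.03 near Pts, -0.20 near Qdpr and -0.22 near Pcbd2. At an unadjusted p under 0.05, which every adjusted call also meets, the counts for the 6 genes were 3 lower and 0 higher. In the fit of all 45037 probe sets, 8801 had an unadjusted p under 0.05 in either direction, and every unadjusted count below stands beside that share. The comparison is rough, because those counts are by direction and on the brightest probe set of each gene. In the fit of probe sets above the median brightness alone, 6494 of 22518 had an unadjusted p under 0.05. The methods' t-test with the same adjustment called 0 of the 6 (and 4 probe sets on the whole array). It was run here without the fourth Sod2-/- array, so its counts are not those of the authors' own comparison.

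Gchfr, the feedback regulator, had log2 values of 4.21, 4.31, 4.43 and 4.23 in Sod2+/+ and 4.35, 4.47 and 4.67 in Sod2-/-. The genotypes overlapped, and the log2 difference of 0.20 (SE 0.09) did not pass (adjusted p = 0.287). The probe set was dim, below the median log2 value of 4.48 over all probe sets.

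Pts, which carries out the step after Gch1, was lower in Sod2-/- erythroblasts. On 1450660_at the log2 values were 5.81, 5.85, 5.86 and 5.96 in Sod2+/+ and 5.31, 5.34 and 5.44 in Sod2-/-. Replicates were tight in both genotypes and a gap of 0.37 separated them. The log2 difference was -0.51 (SE 0.07, 1.42-fold lower, adjusted p = 0.0150). Probe sets within 0.5 log2 units of its brightness had a median difference of 0.03. The second Pts probe set, 1458402_at, was dimmer and did not pass (log2 difference -0.00, adjusted p = 0.992). The Pts call was lost without Sod2-/- array 35 (log2 difference -0.49, adjusted p = 0.0620). The mean of both Pts probe sets differed by -0.25 and still passed (adjusted p = 0.0358).

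Spr, the last enzyme of synthesis, did not differ beyond its spread. Its log2 values were 4.99, 4.71, 4.87 and 4.81 in Sod2+/+ and 4.78, 4.76 and 4.85 in Sod2-/-, and the Sod2-/- values lay inside the Sod2+/+ range. The log2 difference was -0.05 (SE 0.08, adjusted p = 0.801).

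The recycling enzymes divided. Qdpr, which reduces quinoid dihydrobiopterin back to the active cofactor, was lower in Sod2-/- erythroblasts on both of its probe sets. On the brighter, 1437993_x_at, the log2 values were 7.24, 7.18, 7.22 and 7.67 in Sod2+/+ and 6.44, 5.91 and 6.83 in Sod2-/-. The genotypes did not overlap, but the Sod2-/- arrays spread widely and array 37 stood above the other Sod2+/+ arrays. The log2 difference was -0.93 (SE 0.21, 1.91-fold lower, adjusted p = 0.0485). On 1423664_at the log2 values were 6.40, 6.28, 6.32 and 6.61 in Sod2+/+ and 5.86, 6.01 and 5.86 in Sod2-/-. Here the difference was smaller and better separated from its error, at -0.49 (SE 0.09, 1.41-fold lower, adjusted p = 0.0339).

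Pcbd2, a carbinolamine dehydratase that also serves as a dimerization cofactor of HNF1 transcription factors, was lower too. Its log2 values were 7.48, 7.91, 7.31 and 7.54 in Sod2+/+ and 7.03, 6.73 and 6.40 in Sod2-/-, with a gap of 0.28. The log2 difference was -0.84 (SE 0.17, 1.79-fold lower, adjusted p = 0.0406). Its paralog Pcbd1, with the same enzymatic and dimerization roles, had log2 values of 5.33, 5.30, 5.58 and 5.36 in Sod2+/+ and 5.37, 5.49 and 5.57 in Sod2-/-. These overlapped, and the log2 difference of 0.08 (SE 0.09) did not pass (adjusted p = 0.664).

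The calls of Qdpr and Pcbd2 were close to the threshold. With 1 array left out, the brighter Qdpr probe set passed in 1 of 7 fits (without array 39) and Pcbd2 in 2 of 7 (without array 33 or array 31), against 6 of 7 for Pts. Qdpr also missed the threshold with fluidics station as a block (adjusted p = 0.0751). The second chip lot holds no Sod2+/+ array, so a fit with chip lot as a block compares array 35 alone with the Sod2+/+ arrays. It gave -1.41 for Qdpr (adjusted p = 0.0310), -0.83 for Pcbd2 (adjusted p = 0.175) and -0.53 for Pts (adjusted p = 0.0556). Probe sets of like brightness were themselves shifted, with a median difference of -0.20 near the brighter Qdpr set, -0.06 near the dimmer one and -0.22 near Pcbd2. After quantile normalization Qdpr was at -0.76 (adjusted p = 0.0863) and Pcbd2 at -0.63 (adjusted p = 0.0555), neither past the threshold, while Pts was at -0.47 (adjusted p = 0.00934). Non-overlap by itself was common: 10.2% of all probe sets were lower without overlap.

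**Figure D3:**
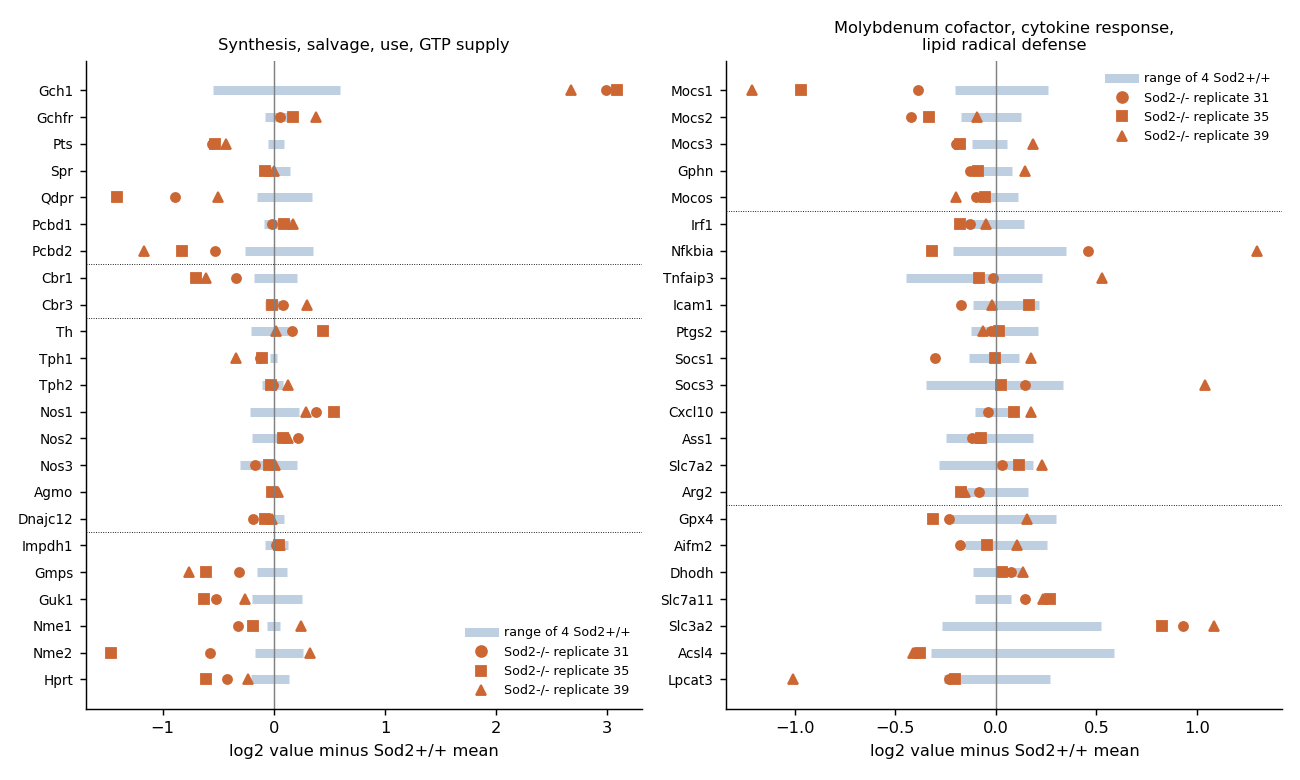
Log2 value of each Sod2-/- array minus the Sod2+/+ mean (x axis, different scales in the 2 panels) for every measured gene of the 7 pathway lists (y axis, 1 brightest probe set per gene). Bars span the 4 Sod2+/+ arrays and dotted lines part the lists in the order named in the titles. Gch1 lies near 3, while the genes that supply GTP and those that use or recycle tetrahydrobiopterin mostly lie between -1.5 and 0.5.

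The list of enzymes that use tetrahydrobiopterin showed no call in either direction. Besides the enzymes it held Dnajc12, a co-chaperone of the aromatic amino acid hydroxylases. Of 9 listed genes 8 were measured, with a median difference of 0.02, and 0 passed in the limma fit (unadjusted, 1 was lower and 1 higher at 0.05, and 0 passed in the methods' t-test). Several of the measured genes, Dnajc12 among them, were dim, below the median log2 value of 4.48 over all probe sets. Nos1, the neuronal nitric oxide synthase, had the largest difference. Its log2 values were 6.29, 6.15, 6.45 and 6.01 in Sod2+/+ and 6.60, 6.76 and 6.51 in Sod2-/-, without overlap (log2 difference 0.40, SE 0.11, adjusted p = 0.0904). Th, tyrosine hydroxylase, differed by 0.21 (adjusted p = 0.390), and the inducible synthase Nos2 by 0.14 (adjusted p = 0.460).

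Of the reductases that can salvage the cofactor or form its precursors by side branches, Cbr1 and Cbr3 were measured of 4 listed. Cbr1, a carbonyl reductase, was lower in Sod2-/- erythroblasts, with log2 values of 7.17, 7.56, 7.34 and 7.32 in Sod2+/+ and 7.01, 6.64 and 6.74 in Sod2-/- (log2 difference -0.55, SE 0.12, 1.46-fold lower, adjusted p = 0.0422). Its groups did not overlap, and with 1 array left out it passed in 2 of 7 fits (without array 17 or array 31). Cbr3 overlapped between the genotypes, with a difference of 0.12 (adjusted p = 0.520).

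Of the genes that supply GTP, the substrate of Gch1, 1 was lower and 0 were higher, beside 4.47% and 0.412% of all genes. Of 9 listed genes 6 were measured, with a median difference of -0.44 (-0.26 after quantile normalization), against 0.02 for all genes. Probe sets of like brightness were themselves shifted, with median differences from -0.29 near Gmps to -0.08 near Guk1. Gmps, GMP synthetase, alone passed, with log2 values of 8.60, 8.75, 8.48 and 8.69 in Sod2+/+ and 8.32, 8.02 and 7.87 in Sod2-/- (log2 difference -0.56, SE 0.12, 1.48-fold lower, adjusted p = 0.0402). The salvage enzyme Hprt differed by -0.42 (adjusted p = 0.0781) and guanylate kinase Guk1 by -0.47 (adjusted p = 0.0838), and neither passed. Gmps missed the threshold after quantile normalization, and with 1 array left out it passed in 2 of 7 fits (without array 33 or array 31).

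Molybdenum cofactor synthesis is another pathway that begins with a rearrangement of GTP to a pterin. All 5 listed genes were measured and all 5 differences were negative, with a median of -0.12 (-0.08 after quantile normalization). Probe sets of like brightness were themselves shifted, by a median of -0.20 near Mocs1 and -0.21 near Mocs2. In the limma fit 0 passed (unadjusted, the count at 0.05 was 2, and 0 passed in the methods' t-test). Mocs1, which carries out that first step, had log2 values of 7.53, 7.42, 7.06 and 7.07 in Sod2+/+ and 6.88, 6.30 and 6.06 in Sod2-/- (log2 difference -0.86, SE 0.20, adjusted p = 0.0551). Its arrays did not overlap and it stood just short of the threshold. Mocs2, of the next step, differed by -0.28 (adjusted p = 0.169). After quantile normalization Mocs1 was at -0.68 and Mocs2 at -0.06.

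Gch1 is known in many cell types as a gene induced by inflammatory cytokines, so a list of 12 cytokine response genes was examined beside it. Of the 11 measured, 0 passed in the limma fit, none passed in the methods' t-test and 0 reached an unadjusted p under 0.05. Most of these genes were dim in both genotypes, below the median log2 value of 4.48 over all probe sets, which limits what could be detected. The median difference was -0.01. Nfkbia, an inhibitor of NF-kappa B, had log2 values of 9.26, 9.45, 9.35 and 9.82 in Sod2+/+ and 9.93, 9.15 and 10.77 in Sod2-/-. Socs3, an inhibitor of cytokine signaling, had 5.09, 4.51, 4.63 and 5.19 in Sod2+/+ and 5.00, 4.88 and 5.89 in Sod2-/-. In both genes array 39 stood highest of all 7 arrays, and neither gene passed (log2 differences 0.48 and 0.40, adjusted p = 0.464 and 0.444). Array 39 was the lowest of the Sod2-/- arrays for Gch1. The part of cytokine signaling in the Gch1 difference was not tested.

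Tetrahydrobiopterin also protects lipids from radical damage, and 7 genes of lipid radical defense were measured. The list held 1 higher gene and 0 lower, beside 0.412% and 4.47% of all genes, with a median difference of -0.04. Slc3a2, the heavy chain shared by the cystine importer and other amino acid transporters, had log2 values of 11.10, 10.54, 10.31 and 10.36 in Sod2+/+ and 11.51, 11.40 and 11.66 in Sod2-/- (log2 difference 0.95, SE 0.18, 1.93-fold higher, adjusted p = 0.0332). Its partner in cystine import, Slc7a11, was dim and did not pass (log2 difference 0.21, adjusted p = 0.140). Gpx4, the lipid hydroperoxide peroxidase, overlapped between the genotypes (log2 difference -0.13, adjusted p = 0.688). With 1 array left out Slc3a2 passed in 1 of 7 fits (without array 17).

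To see whether the difference at Gch1 extended along chromosome 14, the nearest 3 measured genes on each side were examined in RefSeq order. In the limma fit 1 of these 6 genes was higher and 0 were lower, beside 0.412% and 4.47% of all genes. At an unadjusted p under 0.05 the counts were 1 higher and 2 lower, and 0 passed in the methods' t-test. Cgrrf1, a RING finger protein, had log2 values of 6.96, 7.00, 6.82 and 6.91 in Sod2+/+ and 7.35, 7.27 and 7.58 in Sod2-/- (log2 difference 0.48, SE 0.09, 1.39-fold higher, adjusted p = 0.0305). Its groups did not overlap, but the difference was far smaller than that of Gch1. Gmfb had the largest difference of the 6, at -0.97, also without overlap, and did not pass (adjusted p = 0.0831). Samd4 differed by -0.18 and Mapk1ip1l by -0.51 (adjusted p = 0.211). Wdhd1 and Socs4 were at -0.02 and -0.01. The 6 neighbours thus ranged from -0.97 to 0.48 in log2 difference.

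**Figure D4:**
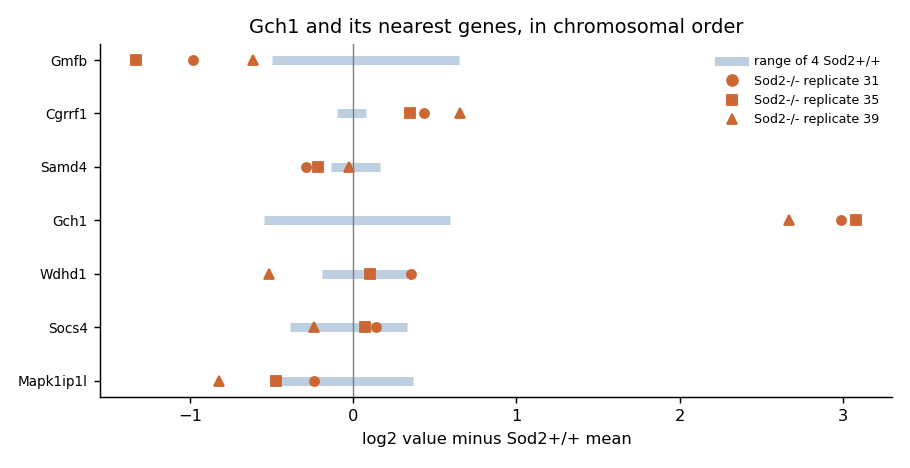
Log2 value of each Sod2-/- array minus the Sod2+/+ mean (x axis) for Gch1 and the nearest 3 genes on each side that have a probe set of their own (y axis, in chromosomal order), with bars spanning the 4 Sod2+/+ arrays. The 3 Sod2-/- arrays lie between 2.67 and 3.08 for Gch1. Cgrrf1 is the neighbour whose Sod2-/- arrays all lie above the Sod2+/+ range, and Gmfb the one whose Sod2-/- arrays all lie below it.

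Over the 7 arrays, the genes whose pattern was most like that of Gch1 were sought among 1652 genes that spanned at least 1 log2 unit. Because the genotypes lie far apart in Gch1, Pearson's r mostly reflects the genotype difference, which all 7 points share, and it is given as a description. The highest were E4f1 (0.963), Marchf3 (0.961), Cdk5rap1 (0.951), Zfp207 (0.937) and Eci1 (0.932). The lowest were Lgals3bp (-0.990), Cyfip2 (-0.970), Ift140 (-0.963), Rgs10 (-0.960) and C1qbp (-0.952). Among the pathway members r with Gch1 was -0.951 for Pts, -0.858 for Qdpr, -0.766 for Pcbd2, -0.486 for Spr, 0.314 for Pcbd1 and 0.636 for Gchfr. Since r follows the genotype difference, the low values of Pts, Qdpr and Pcbd2 restate their lower means in Sod2-/- and are no further result.

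The order of the arrays within the genotypes gave other genes. For deviations from the genotype means, over 3969 genes whose deviations spanned at least 0.5 log2 units, the highest r with Gch1 was that of Tmem209 (0.987), Nfix (0.985), Prpf4 (0.984), Ndst2 (0.978) and Ttll1 (0.976), all of which had lower means in Sod2-/- than in Sod2+/+. Among the members this r was 0.711 for Pcbd2, near 0 for Pts (0.00264), -0.267 for Qdpr and -0.993 for Spr. All these values rest on 7 arrays with 2 means removed. Those of Tmem209, Nfix, Prpf4, Ndst2 and Ttll1 are the extremes of a search over 3969 genes. The member values were not picked by that search. The deviations of Spr spanned less than the 0.5 log2 units it required, so its r rests on small differences.

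Markers of the sorted cells and of other marrow cells were read beside Gch1. In these bulk samples, fewer cells of a type and less RNA per cell cannot be told apart. Both the erythroid list and the neutrophil list, given below, were bright in every array, so this brightness does not measure the purity of the sort. The erythroid list had means of 11.50 to 11.63 in Sod2+/+ and 11.60 to 11.74 in Sod2-/-. Of its 11 measured genes 0 passed in the limma fit (3 were higher at an unadjusted p under 0.05, and 0 passed in the methods' t-test). Among 7 early erythroid genes 1 was lower, Myb, a transcription factor of progenitors (log2 difference -1.24, SE 0.23, adjusted p = 0.0303). Among 7 late erythroid genes 0 passed by limma, at an unadjusted p under 0.05 or by the methods' t-test.

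Macrophages express Gch1 when activated, and part of their marker list stood high in 1 Sod2-/- array. The list mean was 5.44 to 5.66 in Sod2+/+ and 5.56, 5.37 and 6.87 in arrays 31, 35 and 39. Of its 10 genes 0 passed in the limma fit or in the methods' t-test. At an unadjusted p under 0.05 the count was 1, Lyz2, with a lower value in Sod2-/-. The complement genes C1qa, C1qb and C1qc, made by tissue macrophages, reached 7.65, 8.09 and 8.33 in array 39. In all other arrays they lay between 3.75 and 4.68. Adgre1, Csf1r, Cd68 and Mertk were also highest in array 39, by less (5.03, 8.69, 6.05 and 4.10). Vcam1 (6.41) and Cd163 (3.59) lay inside the Sod2+/+ range there, and Lyz2 (10.72) lay below it. Gch1 was at 10.74 and 10.83 in arrays 31 and 35, where the C1q genes were dim, and at 10.42 in array 39. Without array 39 the Gch1 difference was 3.04. The part of macrophages in the Gch1 values was not tested.

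Genes of B cells and of granulocyte lineages were lower in part. The B cell list mean was 5.79 to 6.00 in Sod2+/+ and 5.01 to 5.23 in Sod2-/-, with 5 of 9 genes lower. Mast cell, basophil and eosinophil genes were lower in 3 of 8, with list means of 5.73 to 6.27 and 5.23 to 5.48. Both counts stand beside 4.47% of all genes that were lower. Neutrophil genes had a median difference of -0.87, with list means of 11.17 to 11.55 in Sod2+/+ and 9.87 to 11.19 in Sod2-/-. Of these 10 genes 0 passed in the limma fit or the methods' t-test, while at an unadjusted p under 0.05 the count was 9, all with lower values. The lists of T and NK cells, megakaryocytes and endothelium each held 0 calls by limma or the methods' t-test, with at most 1 gene in each direction at an unadjusted p under 0.05. The part of these lineages in the lower values of Pts, Qdpr and Pcbd2 was not tested.

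**Figure D5:**
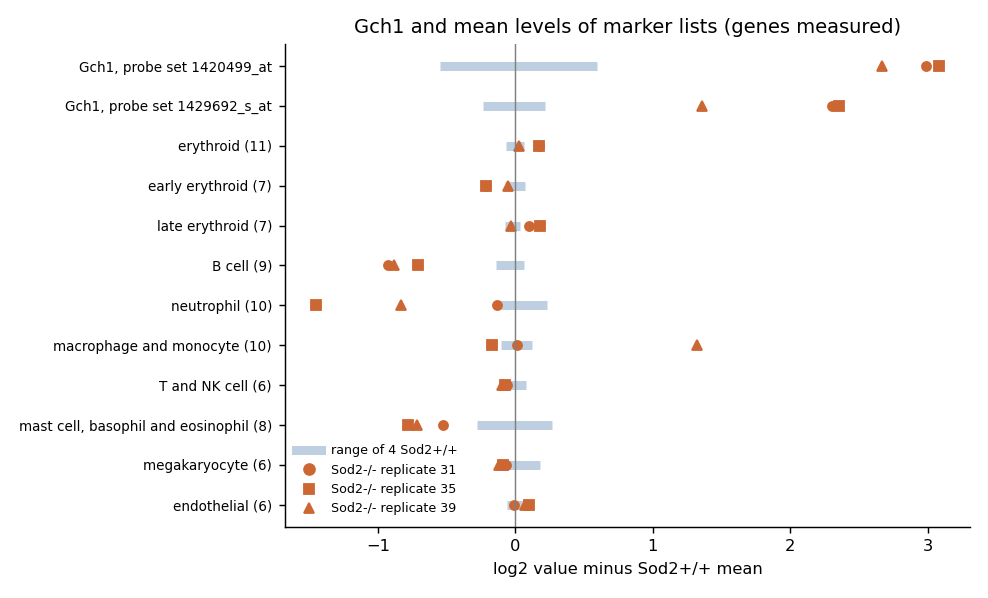
Log2 value of each Sod2-/- array minus the Sod2+/+ mean (x axis) for both Gch1 probe sets and for the mean of each marker list (y axis, number of genes measured in brackets), with bars spanning the 4 Sod2+/+ arrays. The mean of the macrophage and monocyte list is raised in array 39 alone.

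RNA quality and array settings were read in the same way. The log2 ratio of 3-prime to 5-prime signal of Gapdh was 1.24 to 1.45 in Sod2+/+ and 1.10 to 1.21 in Sod2-/- (exact two-sided permutation p = 0.0571, the smallest that 4 against 3 arrays allow). For Actb it was 0.672 to 0.874 and 0.691 to 0.777 (exact two-sided permutation p = 0.857). Their part in the member differences was not tested. Arrays 31 and 39 are of another chip lot than the other 5 arrays, and within the first lot, which holds 4 Sod2+/+ arrays and array 35, the Gch1 difference was 3.08. Within the fluidics station of arrays 17, 29 and 31 it was 2.96, and within that of arrays 33, 37, 35 and 39 it was 2.90. The 4 Sod2 probe sets did not check the genotype, since the sources do not say which of their probes lie in the deleted part: 0 passed in the limma fit, at an unadjusted p under 0.05 or by the methods' t-test, and the brightest read 8.32, 8.62, 8.20 and 8.59 in Sod2+/+ and 8.47, 8.09 and 8.61 in Sod2-/-.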

How the data were processed

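Expression was deposited as log2 values per probe set, which the authors computed by RMA from all probes of each set. GCOS 1.3.037 is named for scaling in the submitters' notes, and those do not say if the fourth Sod2-/- array entered the RMA run. No further normalization or filter was applied here. Of 45101 probe sets, 64 controls were left out. The annotation matched 34945 of the others to 1 gene, 932 to several and 9160 to none, and 99.1% of the gene identifiers were in the RefSeq table of GRCm38.p6. Scan settings of each array gave chip lot and fluidics station.

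Genotype was the single term of a limma fit (version 3.58.1 under R 4.3.3, lmFit then eBayes). P-values were adjusted after Benjamini and Hochberg over all 45037 probe sets with a threshold of 0.05. Every adjusted p is from this fit unless another is named, and every difference is Sod2-/- minus Sod2+/+. A gene stands on its probe set with the highest mean. Brightness was used to choose and describe probe sets, and no transcript level of a gene was compared with that of another. The procedure was tested on simulated data. Figures were drawn with matplotlib 3.10.9.

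Members and lists were chosen with earlier results of these data known. The genes named are every member, Sod2, the 3 largest calls of each pathway list (or the 2 largest differences where none passed), the nearest 3 measured genes on each side of Gch1, and the 5 genes most and least like it. Other genes named (Nos2, Dnajc12, Cbr3, Hprt, Guk1, Slc7a11, Gpx4, Myb, the macrophage and monocyte markers, Cish and Trib3) were chosen after their values were seen.

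Alternatives were the methods' t-test, eBayes with trend and robust estimation, quantile normalization, centring on array medians, an offset of 32 on the linear scale, probe sets above the median brightness alone, fluidics station or chip lot as a block, arrays within 1 station or lot, a gene's mean over all its probe sets, and leaving out each array in turn. No sequence of the RNA was measured, and the number of arrays limits the precision. Some genes of the lists are not reported here.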

Additional observations from a re-analysis of the deposited data

Results flagged for a closer look

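The brighter Qdpr probe set, 1437993_x_at, stood apart in 1 Sod2+/+ array. Array 37 read 7.67 on the log2 scale against 7.24 in the nearest of the other 3 Sod2+/+ arrays, a gap of 0.874 of the group's whole range, which is above Dixon's critical value for 4 samples. The test was run on 25 groups, and chance flags about 1 in 20. Without this array the Qdpr log2 difference was -0.82 in place of -0.93.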

How the results depend on the processing

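No paired analysis was possible because the genotypes share no replicate numbers in the labels; pairs of samples were sorted in parallel, but the labels do not say which arrays belong to a pair. The Gch1 difference kept its direction under all 19 alternatives, at 2.73 to 3.11 with 1 array left out, and moved most, to 2.46, with the mean of all probe sets. Gchfr and Pcbd1 stayed positive and below the threshold wherever fitted; Gchfr could not be fitted among bright probe sets alone. Spr changed sign without Sod2+/+ array 17 (0.000987), and ran from -0.0932 to 0.000987 with 1 array left out. Pts, Qdpr and Pcbd2 stayed negative throughout. With 1 array left out Pts ran from -0.54 to -0.48, Qdpr from -1.15 to -0.69 and Pcbd2 from -0.99 to -0.68. Moves of over 1.5 times without loss of the call were those of Pts to -0.25 with the mean of all probe sets and to -0.31 with the offset of 32, and of Qdpr to -1.41 with the chip lot block.

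The threshold was missed in these cases. By the methods' t-test Pts (-0.51), Qdpr (-0.93) and Pcbd2 (-0.84) did not pass. After quantile normalization Qdpr (-0.76) and Pcbd2 (-0.63) did not, nor with an offset of 32 (-0.72 and -0.68). Centring on medians lost Qdpr (-0.97), as did the station block (-0.95). In the chip lot block and within chip lot A, where array 35 is the only Sod2-/- array that informs the comparison and is assumed to vary like the others, Pts (-0.53) and Pcbd2 (-0.83) did not pass, which says nothing of chip lot itself. Within station 1 Pts was at -0.52, Qdpr at -0.77 and Pcbd2 at -0.67, and within station 2 at -0.52, -1.07 and -0.86, with 0 calls on either array set. The count of 3 lower members became 1 after quantile normalization, with the offset, with the lot block and within lot A, 0 by the t-test and within each station, and 0 to 2 with 1 array left out.

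The single lower salvage gene was lost (0) by the t-test, trend and robust estimation, quantile normalization, offset, either block and every within-batch fit. The single lower GTP supply gene was lost (0) by the t-test, quantile normalization, offset, lot block, within stations and with the mean of all probe sets. The single higher lipid radical defense gene was lost (0) by the t-test, offset, lot block and every within-batch fit. With 1 array left out these counts ran from 0 to 1. Molybdenum cofactor synthesis gained 1 lower gene with trend and robust estimation, bright probe sets alone and the station block, and 0 to 1 with 1 array left out. Over all probe sets, calls fell from 1530 to 143 without Sod2-/- array 35, 242 without Sod2+/+ array 37, 303 without Sod2+/+ array 29, 500 without Sod2-/- array 39 and 840 without Sod2+/+ array 17; to 231 with the offset, 894 and 817 with station and lot as blocks, 502 within lot A, 4 by the t-test and 0 within either station. They rose to 2436 among bright probe sets alone. Quantile normalization called 826 lower and 656 higher in place of 1275 lower and 255 higher. The causes were not tested. The number of arrays, and dim signal for Gchfr, the second Pts probe set and many genes of the lists, limit what could be detected.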
